A study of Homo sapiens with 9 samples.

Results

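Across most of the genome of LNCaP cells, regions of trimethylated histone H3 lysine 27 (H3K27me3) were listed sparsely, but in some stretches they stood close together. The stretches described here are 100 kb windows of chromosomes 1 to 22 and X in which at least 20 H3K27me3 regions of the control library had their midpoint. The first and last 5 Mb of each chromosome were left out. This gave 729 dense windows, or 72.9 Mb, of 28042 windows outside the chromosome ends (2.60%) and 30365 windows in all. A further 390 windows with as many regions lay in the ends. The dense windows were chosen by the control H3K27me3 list, so the number and cover of control H3K27me3 regions in them are a description and no finding. The EZH2, H3K27ac and shEZH2 lists took no part in the choice.

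LNCaP cells are a long-established line from a human prostate cancer. The shEZH2 cells had been infected with a lentivirus for knockdown of EZH2, and the control cells carried the plko.1 vector. Per the labels' protocols, cells were fixed with 1% paraformaldehyde 2 to 3 days after infection, and chromatin was sheared to 200 to 500 bp. Each of the 6 lists, for EZH2, H3K27ac and H3K27me3 in shEZH2 and in control, came from 1 library, with no input library. No difference between shEZH2 and control could therefore be compared with the variation between cultures, and no test was run. All intervals below are 95% intervals for counting error over windows or peaks, which are not replicates. The EZH2 libraries held 14514395 tags in shEZH2 and 13331155 in control, the H3K27ac libraries 22175405 in shEZH2 and 17438009 in control, and the H3K27me3 libraries 26241104 in shEZH2 and 33289172 in control. Levels are given as normalised tags, scaled by the authors to a library size of 10000000. EZH2 protein or RNA was not measured in these lists. The title of the control EZH2 library adds CST to the target, and that of the shEZH2 library does not. The titles thus do not show whether the same EZH2 antibody was used in both. Coordinates are hg19. No hg19 gene annotation was used here, and the few gene names below are general knowledge of the human map, given as background and not read from a file.

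H3K27me3 is placed by Polycomb repressive complex 2, in which EZH2 is the enzyme. The complex can also bind the mark it has made, and in this way the mark can spread from sites of strong binding into broad domains over silent developmental genes and gene clusters. Acetylation of the same lysine (H3K27ac) marks active promoters and enhancers, and a single histone tail cannot carry both modifications on that residue.

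Dense windows were unevenly spread over the chromosomes. They made up 8.96% of the windows outside the ends on chromosome 19 (44 windows), 8.30% on chromosome 17 (59 windows) and 8.13% on chromosome 20 (43 windows). The largest number, 107 windows, lay on chromosome 1, where they made up 4.47%. At the other end, chromosome 6 had 4 dense windows of 1610 (0.248%) and chromosome X had 1 of 1452 (0.0689%). The chromosomes thus differed widely in how much of their length was dense.

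Dense windows joined into longer domains. Windows that touched formed 448 runs, of which 295 were a single window, 87 had 2 windows, 34 had 3 and 18 had 4. There were 14 runs of 5 or more windows, and the longest, 2 runs of 8 windows, spanned 800 kb. In all, 434 windows (59.5%) lay beside another dense window. Of the 729 windows, 45 lay within 2 Mb of the longest stretch without a listed region on their chromosome, called a gap here. Results for the 684 windows away from gaps are given where they differ.

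**Figure D1:**
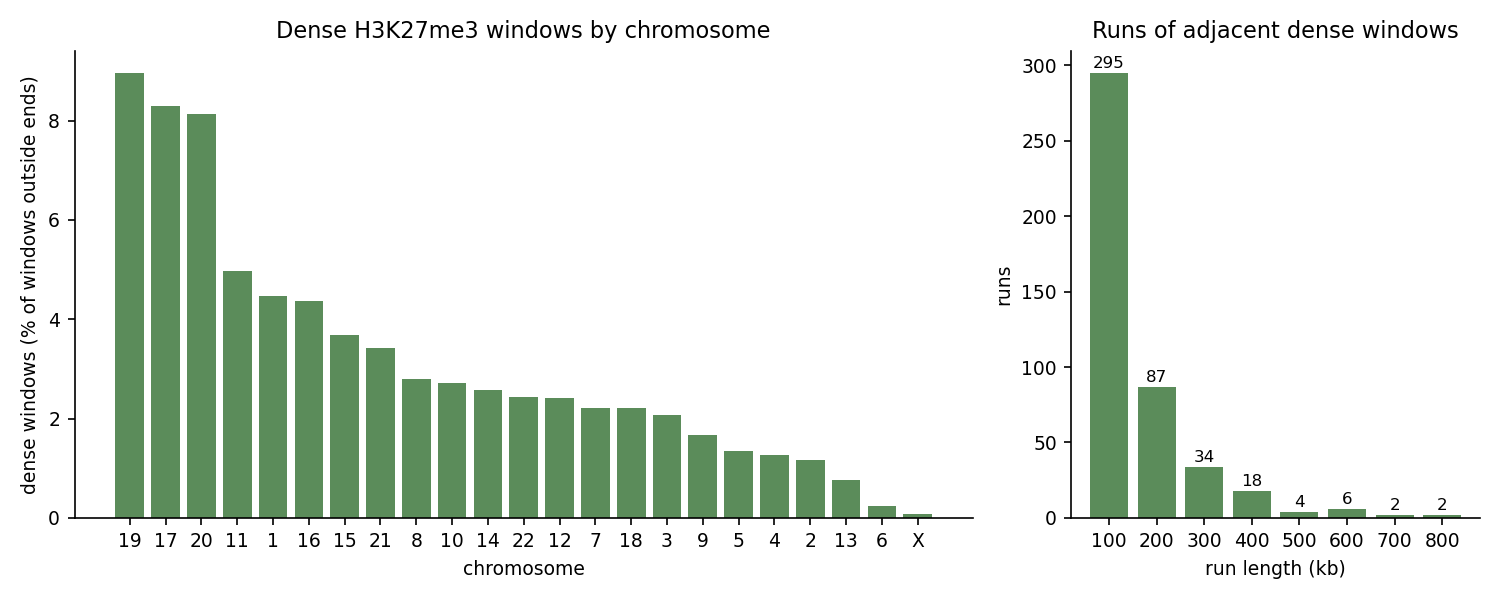
Left, dense windows as a percentage of the 100 kb windows outside the chromosome ends, for each chromosome in falling order. Right, number of runs of adjacent dense windows by run length in kb. The share lies between 8.96% on chromosome 19 and 0.0689% on chromosome X, and 295 of 448 runs are a single window.

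The control H3K27me3 regions in dense windows were many and short. A dense window held a median of 27 control regions, between 20 and 70, and in all the dense windows held 21528 of the 86120 control regions (25%). The median region there was 236 bp wide, and control regions covered a median of 11.3 kb of a window, between 3.89 and 46.3 kb. No dense window was covered to 50% by control regions, and 65 were covered to at least 25%. The windows just inside the threshold, 112 windows with 20 or 21 control regions, had 125 EZH2 peaks in shEZH2 and 236 in control, and 76.8% of them had a control EZH2 peak. The 147 windows just outside it, with 18 or 19 control regions, had 223 EZH2 peaks in shEZH2 and 410 in control, and 84.4% of them had a control EZH2 peak. Control EZH2 peaks per window were thus not more numerous just inside the threshold (2.11) than just outside it (2.79).

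In the shEZH2 library the same windows were filled with long H3K27me3 regions. A dense window held a median of 14 shEZH2 regions, between 1 and 31, and these covered a median of 60.2 kb, between 29.8 and 96.3 kb. At least 50% of the window was covered in 574 windows (78.7%), and at least 90% in 12. The widest shEZH2 regions were chr8:7565336-7634269 with 2787.2 normalised tags, chr20:47331112-47395971 with 1335.7 and chr4:7263564-7321071 with 1418.4, and 1011 shEZH2 regions in dense windows were 10 kb wide or wider. This width is not a comparison with control. Per the file headers, the authors called the shEZH2 list with windows of 1000 bp and the control list with windows of 150 bp, and a call needed 2.73-fold more tags per kb in control than in shEZH2. Tags per covered kb were 17.1 in shEZH2 and 33.0 in control, over covered lengths of 44.6 Mb in shEZH2 and 9.83 Mb in control. Pairs of regions of like width, where the density could be compared, numbered 2 in dense windows, and their log2 ratio of tags per kb, shEZH2 over control, was 0.01 and 0.02.

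H3K27me3 was thus still listed throughout these windows in the shEZH2 library. Of the 21528 control H3K27me3 regions in dense windows, 21104 (98.0%, exact binomial interval 97.8 to 98.2) touched a shEZH2 region by at least 1 bp, beside 94.1% of all control regions. The share was 95.4% in windows with 10 to 19 control regions and 87.1% in windows with 1 to 9. Since shEZH2 regions cover most of a dense window, much of this overlap goes with their cover. The regions that touched no shEZH2 region mostly had few tags, and regions with few tags were also short. When the control regions of dense windows were ranked by tags, 116 such regions lay in the lowest decile (median 3.91 normalised tags) and 0 in each of the 2 highest (medians 22.2 and 49 normalised tags).

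EZH2 was listed in most dense windows. An EZH2 peak lay in 430 of 729 dense windows in shEZH2 (59.0%, exact binomial interval 55.3 to 62.6) and in 637 in control (87.4%, 84.7 to 89.7). Of all 28042 windows outside the ends, 14.9% had an EZH2 peak in shEZH2 and 33.4% in control. In windows with 10 to 19 control H3K27me3 regions, the class nearest to the dense windows, the shares were 44.1% in shEZH2 and 72.4% in control. The difference, dense minus that class, was 14.9 percentage points in shEZH2 (Newcombe interval 10.4 to 19.3) and 15.02 in control (11.5 to 18.4). In windows with 0 control H3K27me3 regions, 7.05% had an EZH2 peak in shEZH2 and 21.2% in control. EZH2 and H3K27me3 were thus listed in the same windows in both libraries, most often where H3K27me3 regions were most closely spaced.

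**Figure D2:**
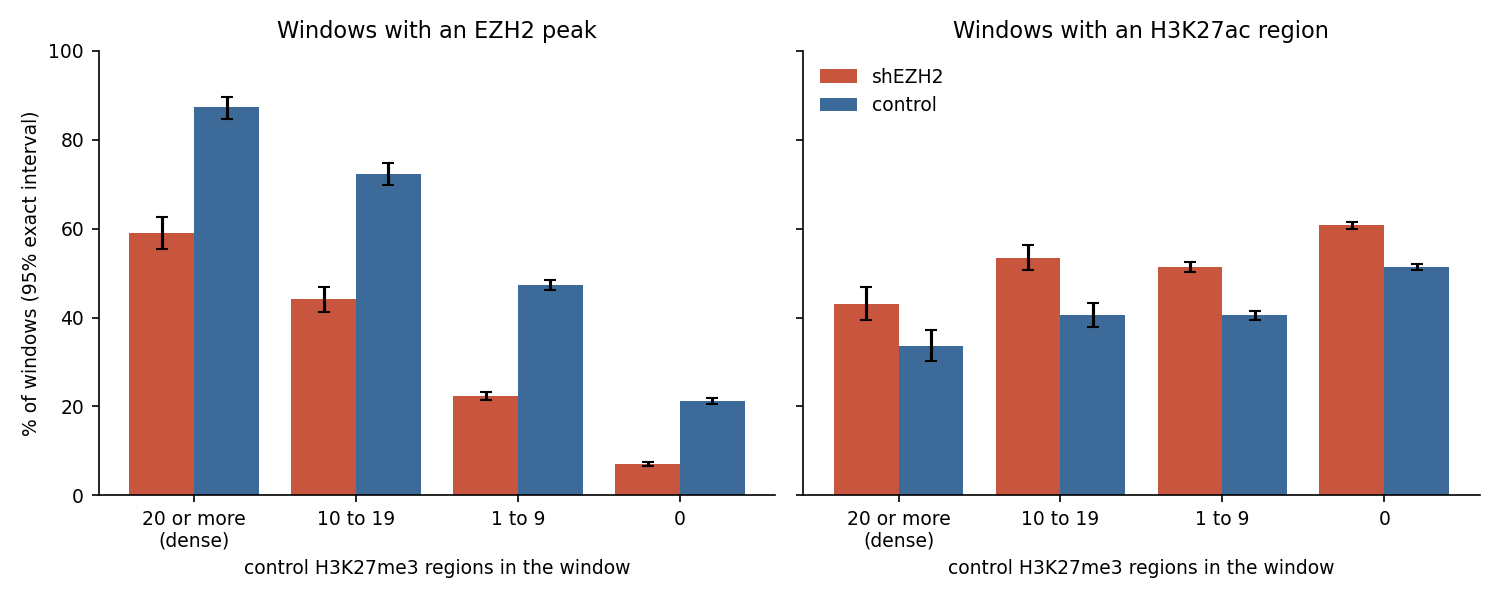
Percentage of 100 kb windows with an EZH2 peak (left) or an H3K27ac region (right), in shEZH2 (red) and control (blue), for windows with 20 or more (dense), 10 to 19, 1 to 9 or 0 control H3K27me3 regions; bars carry 95% exact binomial intervals for counting error. EZH2 shares are highest in dense windows, with 59.0% in shEZH2 and 87.4% in control, and H3K27ac shares are lowest there, with 43.1% in shEZH2 and 33.6% in control.

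EZH2 peaks in dense windows sat on H3K27me3. Of the 2319 control EZH2 peaks in dense windows, 1833 (79.0%, exact binomial interval 77.3 to 80.7) overlapped a control H3K27me3 region, against 44.2% of all control EZH2 peaks. The choice of windows raises this share, because dense windows hold more regions. By mark, 1765 peaks (76.1%) lay on H3K27me3 alone, 65 (2.80%) on H3K27ac alone, 68 (2.93%) on both and 421 (18.2%) on neither. Of those 421, 336 (79.8%) fell inside an H3K27me3 region of the shEZH2 list, against 64.8% in windows with 10 to 19 regions, 54.4% in windows with 1 to 9 and 48.6% of all such control peaks. These shares are raised by the cover of shEZH2 regions, which was 61.2% of the dense windows. H3K27ac, alone or with H3K27me3, was found at 133 control EZH2 peaks (5.74%, 4.82 to 6.76), against 34.4% of all control EZH2 peaks and 11.7% in windows with 10 to 19 regions. Away from gaps the share on H3K27ac was 3.85% (3.07 to 4.77).

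The EZH2 peaks of the knockdown library also lay largely on H3K27me3. Of the 1122 shEZH2 EZH2 peaks in dense windows, 982 (87.5%, 85.4 to 89.4) lay on a control H3K27me3 region and 1067 (95.1%, 93.7 to 96.3) in a shEZH2 H3K27me3 region. Over all shEZH2 EZH2 peaks these shares were 60.9% on control and 67.8% in shEZH2 H3K27me3, and in windows with 10 to 19 regions 81.2% and 89.8%. The choice of windows and the wide shEZH2 regions raise them too. Seen from the mark, most control H3K27me3 regions in dense windows had no EZH2 peak: 1626 of 21528 (7.55%, 7.20 to 7.91) had a control EZH2 peak, beside 10.3% of all control regions. This share rose with the summed tags of a region, and the width of the regions rose with them. It was 1.39% in the lowest decile of tags and 38.4% (36.4 to 40.5) in the highest, where the median region was 1451 bp wide against 151 bp in the lowest. A wider region has more length in which a peak can fall, and the part of width was not tested. Over the 729 windows, the number of control EZH2 peaks and the kb covered by control H3K27me3 had a Pearson correlation of 0.46 and a Spearman correlation of 0.48, given as a description of windows that share their libraries.

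Fewer EZH2 peaks were listed in dense windows in shEZH2 than in control. They held 1122 EZH2 peaks in shEZH2 and 2319 in control, a ratio of 0.484 (exact interval 0.450 to 0.520). The shEZH2 list was shorter over the genome, with 9493 EZH2 peaks against 23060 in control. Away from gaps the ratio was 0.457 in dense windows, above the 0.379 of all windows outside the ends. The direction depends on the length of the lists: with the control EZH2 list shortened by score to the length of the shEZH2 list, the ratio in dense windows was 1.02 (0.934 to 1.11; 1104 control peaks). A dense window held a mean of 1.54 EZH2 peaks in shEZH2, with a median of 1 and a highest value of 17, and a mean of 3.18 in control, with a median of 3 and a highest value of 15. Of the 643 windows with a peak in either list, 499 had fewer in shEZH2, 88 had equal numbers and 56 had more. Of these, 424 windows had a peak in both lists, 213 in control alone and 6 in shEZH2 alone. The same counts over all windows outside the ends are not given here, but 14.9% of those had an EZH2 peak in shEZH2 and 33.4% in control. The ratio was below 1 on 22 of 23 chromosomes; the exception, chromosome 13, had 9 peaks in shEZH2 and 8 in control. Among the 17 chromosomes with at least 50 control peaks in dense windows, it lay between 0.333 on chromosome 5 and 0.801 on chromosome 2.

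**Figure D3:**
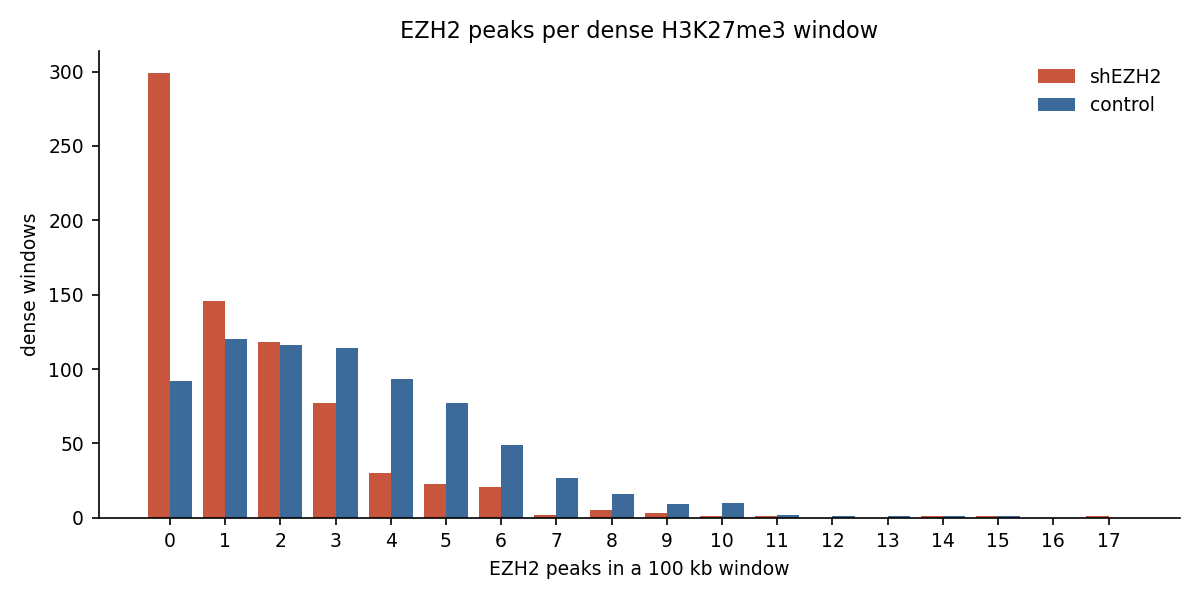
Number of the 729 dense windows (vertical axis) by the number of EZH2 peaks in the window (horizontal axis), in shEZH2 (red) and control (blue), 1 library each. In shEZH2, 299 windows have no EZH2 peak, against 92 in control, and windows with 3 to 10 peaks are more frequent in control at each number.

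This lower number was not peculiar to dense windows. The ratio of EZH2 peak numbers, shEZH2 over control, was 0.536 (0.5001 to 0.573) in windows with 10 to 19 control H3K27me3 regions, 0.428 (0.411 to 0.447) in windows with 1 to 9 and 0.267 (0.252 to 0.283) in windows with 0. The windows poorest in H3K27me3 had the lowest ratio, and the order did not follow the number of regions among the other classes. The dense windows held 11.8% of all EZH2 peaks in shEZH2 and 10.1% in control. Counts of listed peaks depend on the thresholds, and per the file headers a call needed 1.24-fold more tags per kb in shEZH2 than in control. With peaks of at least 15 normalised tags alone, the dense windows held 345 in shEZH2 and 728 in control, a ratio of 0.474 (0.416 to 0.539). EZH2 peak windows were 151 bp in shEZH2 and 183 bp in control. When the minimum was made equal per kb, 488 peaks in shEZH2 and 728 in control passed, and the ratio was 0.670 (0.596 to 0.753).

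Where windows had enough control peaks for a ratio of their own, most had fewer in shEZH2. These windows were chosen by a high control number, which in itself favours a lower number in the other list. The shEZH2 list was also shorter over the genome, as given above. Of 194 dense windows with at least 5 control EZH2 peaks, 168 had fewer peaks in shEZH2, 17 had equal numbers and 9 had more, and 16 had none in shEZH2. Among all 500 windows outside the ends with at least 5 control peaks, 85.6% had fewer in shEZH2. The number was at or under 0.5 of the control number in 112 of the 194 dense windows (57.7%), close to the 56.6% of all 500 such windows. In windows with 10 to 19 control H3K27me3 regions the share was 41.4% of 111 windows.

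At sites listed in both libraries, the EZH2 signal was mostly lower in shEZH2. Of the 2319 control EZH2 peaks in dense windows, 574 (24.8%, 23.01 to 26.6) touched a shEZH2 peak, beside 23.1% of all control peaks. These 574 sites had a median of 13.1 normalised tags in shEZH2 and 24 in control. The median log2 ratio of tags per kb, shEZH2 over control, was -0.58 (order-statistic interval -0.64 to -0.51), and 473 of 574 sites (82.4%) were lower in shEZH2. The share of such sites that were lower was 78.4% in windows with 10 to 19 regions, 74.6% with 1 to 9 and 53.7% with 0. At 120 of the 574 sites (20.9%) the shEZH2 level per kb was at or under 0.5 of control, beside 14.2% of all sites listed in both. On H3K27me3 alone and away from gaps, the median log2 ratio was -0.69 in dense windows (424 sites), -0.68 in windows with 10 to 19 regions (543 sites) and -0.69 in windows with 1 to 9 (1161 sites), with overlapping intervals. At like marks, the sites in dense windows thus did not stand apart in signal. The direction depends on the scaling: with the libraries scaled to the tags in listed EZH2 peaks, the median over the 574 sites was 0.48, that is, higher in shEZH2.

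Whether control EZH2 peaks in dense windows were listed again less or more often than elsewhere depended on the class they were set against. The share that touched a shEZH2 peak was 24.8% in dense windows and 31.0% in windows with 10 to 19 regions, a difference of -6.24 percentage points (Newcombe interval -8.78 to -3.68). In windows with 1 to 9 regions it was 25.8%, a difference of -1.02 points (-3.00 to 1.02), and in windows with 0 it was 15.7%, a difference of 9.08 points (7.10 to 11.1). Control EZH2 peaks on H3K27me3 alone and away from gaps had a median of 11.3 normalised tags in dense windows and 13.5 in windows with 10 to 19 regions. They also stood out less from their surroundings: the authors' fold over the local 10000 bp, which had to reach 4 for a call, had a median of 6.10 (5.96 to 6.23) in dense windows, 7.29 in windows with 10 to 19 regions and 9.49 in windows with 1 to 9. Among control peaks of 15 to under 25 tags, 42.8% (37.1 to 48.7) in dense windows and 54.2% (48.8 to 59.6) in windows with 10 to 19 regions were listed again. Among peaks of 25 tags or more the shares were 75.1% in dense windows and 74.1% in windows with 10 to 19 regions. The part of the tags and the local fold in the difference from windows with 10 to 19 regions was not tested. Of the 1122 shEZH2 peaks in dense windows, 51.2% touched a control EZH2 peak, beside 56.2% of all shEZH2 peaks.

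The dense windows with most control EZH2 peaks included well-known gene clusters. Their choice by the control number favours a lower number in shEZH2. The window chr2:176900001-177000000 covers part of the HOXD cluster, homeobox genes that pattern the limbs and the body axis and a textbook Polycomb target. It had 8 EZH2 peaks in shEZH2 and 12 in control, with 145 normalised tags summed in shEZH2 and 345 in control. Each of the 12 control peaks lay on H3K27me3, 5 were listed again, and no H3K27ac region had its midpoint there in either list. H3K27me3 covered 82.8 kb of this window in shEZH2 and 36.0 kb in control. The window chr5:140700001-140800000 lies in the gamma protocadherin cluster, which encodes cell adhesion molecules of neurons. It had 5 EZH2 peaks in shEZH2 and 14 in control, with 40.7 tags summed in shEZH2 and 143 in control, and each of the 14 control peaks lay on H3K27me3. Unlike the HOXD window, it also held H3K27ac, with 9 regions in shEZH2 and 7 in control.

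Of the other windows with most control EZH2 peaks, 5 lay away from gaps. The window chr1:5500001-5600000 had 1 EZH2 peak in shEZH2 and 11 in control. At chr1:11500001-11600000 there were 3 in shEZH2 and 10 in control, at chr4:8800001-8900000 there were 2 in shEZH2 and 10 in control, and at chr1:156800001-156900000 there were 6 in shEZH2 and 10 in control. The window chr2:133000001-133100000 differed from these, with 14 peaks in shEZH2 and 13 in control. The remaining 3 of the 10 windows lay near gaps and had more peaks in shEZH2. They were chr4:49100001-49200000 with 17 in shEZH2 and 15 in control, chr2:92200001-92300000 with 15 in shEZH2 and 11 in control, and chr2:91600001-91700000 with 11 in shEZH2 and 10 in control. Away from gaps, the ratio over all dense windows was 0.457 (0.423 to 0.494; 949 peaks in shEZH2 and 2077 in control).

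Windows at both ends of the range could be close neighbours. Of the windows with at least 5 control peaks and none in shEZH2, the 5 with most control H3K27me3 regions were chr20:47200001-47300000 (9 in control), chr4:7300001-7400000 (5 in control), chr4:7200001-7300000 (7 in control), chr20:24500001-24600000 (5 in control) and chr3:10500001-10600000 (5 in control). In these 5 windows shEZH2 H3K27me3 regions still covered between 75.5 and 94.2 kb. The highest ratio was 1.36, at chr2:92200001-92300000, followed by chr21:11000001-11100000 with 10 peaks in shEZH2 and 8 in control, and by 1.2 at chr4:7500001-7600000, chr21:9800001-9900000 and chr8:55300001-55400000. Of these 5 windows, 3 lay near gaps. The window on chromosome 4, with 6 peaks in shEZH2 and 5 in control, was in the same run as 2 windows that had none in shEZH2.

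The strongest control EZH2 peaks in dense windows lay mostly near gaps. The peak chr4:49151693-49151875 had 803.3 normalised tags in shEZH2 and 609.1 in control, and it overlapped both marks. The peak chr21:9826012-9826194 had 389.3 in shEZH2 and 593.3 in control, chr21:9826918-9827100 had 243.2 in shEZH2 and 397.6 in control, and chr2:90449656-90449838 had 160.5 in shEZH2 and 302.3 in control. The fifth, chr1:148854469-148854651, lay away from gaps and on H3K27me3 alone, with 121.3 tags in shEZH2 and 307.6 in control, a log2 ratio per kb of -1.07. Away from gaps, the next strongest was chr2:133025615-133025797, on both marks, with 113.7 tags in shEZH2 and 227.3 in control and a log2 ratio of -0.72. The 3 that followed lay on H3K27me3 alone. They were chr1:148855122-148855304 with 100.6 tags in shEZH2 and 147 in control (log2 ratio -0.27), chr2:219825067-219825249 with 40 in shEZH2 and 98.3 in control (-1.02) and chr1:111149702-111149884 with 33.8 in shEZH2 and 82.5 in control (-1.01). Among these 9 peaks, chr4:49151693-49151875 alone had more tags in shEZH2, but their choice by control tags favours fewer tags in shEZH2.

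The richest control H3K27me3 regions were in the same kind of place. The 5 regions with most tags were chr4:49279241-49303922 with 3390 normalised tags, chr4:49102558-49113048 with 988.3, chr2:91773944-91783957 with 873.6, chr2:133026614-133031973 with 700.8 and chr21:9825365-9827758 with 672.3. All 5 held an EZH2 peak and touched a shEZH2 region, and 4 of them lay near gaps. Of the 5, 4 also touched a control H3K27ac region, a combination found at 0.636% of the control H3K27me3 regions in dense windows. The region chr2:133026614-133031973, away from gaps, was 1 of these 4. No input library was used, so these regions and the strongest EZH2 peaks cannot be told apart from sequence that gathers tags with any antibody.

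The longest domain covered 800 kb at chr20:46700001-47500000. Its 8 windows held 26, 29, 33, 37, 39, 62, 61 and 55 control H3K27me3 regions in map order, and shEZH2 H3K27me3 covered 653 kb of it, control H3K27me3 194 kb. In the same order, the windows had 0, 0, 0, 1, 2, 0, 0 and 2 EZH2 peaks in shEZH2 and 1, 3, 3, 2, 4, 9, 1 and 5 in control. The domain thus had 5 EZH2 peaks in shEZH2 and 28 in control, and 4 of the 28 were listed again. The window with most control peaks, chr20:47200001-47300000, had none in shEZH2, although 62 control H3K27me3 regions lay in it and shEZH2 regions covered 89.9 kb. That window lies over PREX1, which encodes an exchange factor for the GTPase Rac. H3K27ac was nearly absent from the domain, with 1 region in shEZH2 and 1 in control.

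The other domain of 800 kb, chr17:5500001-6300000, was more sparsely bound. Its windows had 0, 1, 0, 0, 2, 2, 0 and 0 EZH2 peaks in shEZH2 and 0, 2, 2, 0, 6, 3, 2 and 2 in control, in map order. That is 5 peaks in shEZH2 and 17 in control, under 522 kb of H3K27me3 cover in shEZH2 and 80.7 kb in control. The control EZH2 peaks were most numerous in the fifth of these windows, which also had the most control H3K27me3 regions of the run, 52. H3K27ac had 1 region in shEZH2 and 0 in control.

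Domains with fewer EZH2 peaks listed in shEZH2 than in control also lay on chromosomes 4 and 20. The run chr4:7200001-7800000 covers most of SORCS2, a sorting receptor of neurons. Its 6 windows had 0, 0, 1, 6, 3 and 1 EZH2 peaks in shEZH2 and 7, 5, 6, 5, 8 and 4 in control, together 11 in shEZH2 and 35 in control. Of the 35 control peaks, 2 were listed again, so most of the 11 shEZH2 peaks stood at other positions than the control peaks. The run chr20:24200001-24900000, with 6 of its 7 windows near a gap, had 6 EZH2 peaks in shEZH2 and 26 in control. The run chr8:7100001-7800000 was the exception in H3K27ac among the 5 longest, with 15 H3K27ac regions in shEZH2 and 8 in control, and it had 12 EZH2 peaks in shEZH2 and 24 in control.

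A keratin domain on chromosome 12 was added to these after its values were seen. The run chr12:52700001-53300000 lies in the cluster of type II keratins, the filament proteins of epithelial cells. Its 6 windows had 3, 0, 0, 1, 2 and 0 EZH2 peaks in shEZH2 and 6, 3, 4, 5, 2 and 4 in control, in map order. That is 6 peaks in shEZH2 and 24 in control. H3K27ac was present in most of its windows, with 10 regions in shEZH2 and 7 in control, and H3K27me3 covered 424 kb in shEZH2 and 120 kb in control.

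All 14 runs of 5 or more windows had fewer EZH2 peaks in shEZH2 than in control, with 99 peaks in shEZH2 and 307 in control (ratio 0.322). The lowest was a run at chr1:30300001-30800000 with 0 in shEZH2 and 9 in control, also named after its values were seen. Away from gaps, the ratio of peak numbers became lower as runs became longer. It was 0.518 (0.460 to 0.583; 426 peaks in shEZH2 and 822 in control) in single windows and 0.485 (0.412 to 0.570; 227 in shEZH2 and 468 in control) in runs of 2. It was 0.399 (0.338 to 0.469; 207 in shEZH2 and 519 in control) in runs of 3 or 4, and 0.332 (0.258 to 0.424; 89 in shEZH2 and 268 in control) in runs of 5 or more. Over all windows outside the ends and away from gaps the ratio was 0.379 (0.368 to 0.391; 6216 in shEZH2 and 16383 in control). Single windows and runs of 2 were above that value, and the intervals of the longer runs included it. The share of control peaks listed again had the same order by run length, with 29.3%, 23.9%, 18.3% and 13.4%, beside 23.1% of all control peaks.

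This order did not extend to strong peaks or to signal. With peaks of at least 15 normalised tags alone, a comparison added after seeing the data, the ratios were 0.459, 0.282, 0.413 and 0.386 in the same order of run length, with wide intervals. Control peaks also became weaker with run length, with median tags of 11.3, 10.5, 9.75 and 9.75 and median local folds of 6.44, 6.38, 6 and 5.60. Their part in the order was not tested. At sites listed in both libraries the median log2 ratio per kb was -0.64, -0.66, -0.64 and -0.68, with no such order.

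**Figure D4:**
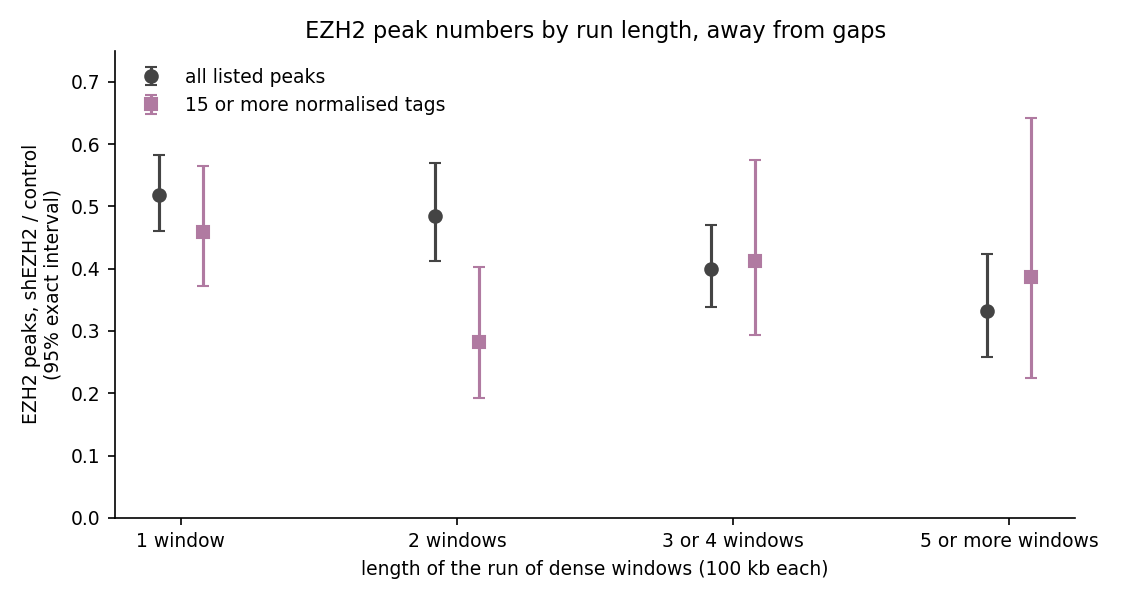
Ratio of EZH2 peak numbers, shEZH2 over control (vertical axis), by the length of the run of dense windows away from gaps, for all listed peaks (black circles) and for peaks of at least 15 normalised tags (purple squares); bars are 95% exact intervals for counting error. For all peaks the ratio lies between 0.518 in single windows and 0.332 in runs of 5 or more, and the strong peaks show no such order.

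H3K27ac was less frequent in dense windows than elsewhere. An H3K27ac region had its midpoint in 314 of 729 dense windows in shEZH2 (43.1%, exact binomial interval 39.4 to 46.8) and in 245 in control (33.6%, 30.2 to 37.2). Of all windows outside the ends, 57% had an H3K27ac region in shEZH2 and 47% in control. In windows with 10 to 19 control H3K27me3 regions the shares were 53.5% in shEZH2 and 40.5% in control. The difference, dense minus that class, was -10.4 percentage points in shEZH2 (Newcombe interval -14.9 to -5.84) and -6.86 in control (-11.2 to -2.46). Mean cover per dense window was 1.95 kb in shEZH2 and 0.543 kb in control, against 5.61 kb in shEZH2 and 1.76 kb in control in windows with 0 control H3K27me3 regions. Most dense windows, 399 (54.7%), had no H3K27ac region in either list. The same share over all windows is not given here.

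Most control H3K27ac regions in dense windows were listed again in shEZH2, while many shEZH2 regions had no control counterpart. Of 613 control H3K27ac regions, 572 (93.3%, 91.0 to 95.2) touched a shEZH2 region, beside 97% of all control H3K27ac regions. The strongest control region away from gaps, chr17:72752777-72758212, had 1259.1 normalised tags over 8488 bp in shEZH2 and 1421.6 over 5436 bp in control. The next, chr20:44599328-44601856, had 757.6 tags over 5835 bp in shEZH2 and 792.5 over 2529 bp in control, and chr1:110880091-110883107 had 731 over 6695 bp in shEZH2 and 730 over 3017 bp in control. The widths follow from different settings, so these levels are not a comparison. In dense windows, 1 pair of H3K27ac regions was of like width, with 48.3 tags in shEZH2 and 80.9 in control and a log2 ratio per kb of -0.81. Of 684 shEZH2 H3K27ac regions in dense windows, 376 (55.0%) touched a control region, beside 59% of all shEZH2 H3K27ac regions.

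A gain of H3K27ac in dense windows could not be read from the lists. H3K27ac was listed in both libraries in 229 windows, in shEZH2 alone in 85 and in control alone in 16. Over all windows outside the ends, it was likewise listed in more windows in shEZH2 (57%) than in control (47%). The 97 regions of the 85 windows had a median of 13.5 normalised tags and a median width of 1001 bp, and the median of their tags per kb was 12.2. The control list needed 34.4 tags per kb for a call, counted in a window of 150 bp. As a mean over the whole region, 0 of the 97 reached that density. All shEZH2 H3K27ac regions in dense windows together had 33.6 tags per covered kb, also below it, although 376 of the 684 touched a control region. Density over a region thus does not decide the matter, and whether the same level would have been listed in control cannot be told.

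Contacts of H3K27ac with H3K27me3 were more frequent in dense windows than over the genome, and less so away from gaps. The choice of windows raises the shares in dense windows, because these windows hold more H3K27me3 regions that can be touched. The genome share is low in part because windows without control H3K27me3 regions offer almost none to touch. The part of H3K27me3 cover in these differences was not tested. Of the 613 control H3K27ac regions, 164 (26.8%, 23.3 to 30.4) touched a control H3K27me3 region, beside 14.1% in windows with 10 to 19 regions and 2.08% of all control H3K27ac regions. Away from gaps this was 38 of 437 (8.70%, 6.23 to 11.7), against 5.33% in windows with 10 to 19 regions. That difference was 3.36 percentage points (Newcombe interval 0.62 to 6.60). In the shEZH2 lists, with their wider regions, 262 of 684 H3K27ac regions (38.3%) touched H3K27me3, beside 3.95% of all, and 145 of 540 (26.9%) did so away from gaps. In windows with 10 to 19 regions these shares were 20.8% and, away from gaps, 17.2%. The window with the longest control H3K27ac cover, chr4:49100001-49200000, lay near a gap and had 68.0 kb of H3K27ac in shEZH2 and 44.0 kb in control, beside 62.7 kb of H3K27me3 in shEZH2 and 41.8 kb in control. The next, chr17:72700001-72800000, had 25.8 kb of H3K27ac in shEZH2 and 13.1 kb in control and holds the strongest site named above. Then came chr9:68400001-68500000 with 26.5 kb in shEZH2 and 9.95 kb in control, chr6:44200001-44300000 with 21.1 kb in shEZH2 and 7.95 kb in control, and chr11:60900001-61000000 with 17.2 kb in shEZH2 and 7.94 kb in control. In the last of these, shEZH2 H3K27me3 cover was at its lowest of all dense windows, 29.8 kb.

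Among the dense windows, those with more control EZH2 peaks more often held H3K27ac as well. A control H3K27ac region lay in 90 of the 194 windows with at least 5 control EZH2 peaks (46.4%) and in 18 of the 92 windows with 0 (19.6%). The 245 windows with control H3K27ac held 524 EZH2 peaks in shEZH2 and 959 in control, and the 484 windows without it held 598 in shEZH2 and 1360 in control. Windows near gaps are included in these numbers. Few of the EZH2 peaks were on H3K27ac itself, as given above.

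Some windows dense in H3K27me3 had no EZH2 peak in either list. There were 86 of them, and the 5 with most control H3K27me3 regions were chr11:36400001-36500000 (50 regions), chr20:16600001-16700000 (47), chr3:54300001-54400000 (43), chr14:57100001-57200000 (40) and chr16:77300001-77400000 (39). In these 5 windows, H3K27me3 covered between 64.0 and 87.1 kb in shEZH2 and between 11.2 and 22.9 kb in control. They had at most 1 H3K27ac region in either list. A high number of H3K27me3 regions thus occurred in some windows without a listed EZH2 peak. A call needed a fold of 4 over the local 10000 bp, so a window without a listed peak is not shown to lack EZH2. Among the 5 windows with most control H3K27me3 regions, chr8:6800001-6900000 (70 regions) had 6 EZH2 peaks in shEZH2 and 6 in control, and chr11:117400001-117500000 (60 regions), over the neuronal adhesion gene DSCAML1, had 2 in shEZH2 and 2 in control.

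H3K27me3 cover and EZH2 peak numbers were lower outside the runs than in them. Away from gaps, shEZH2 H3K27me3 covered a mean of 70.3 kb of windows inside a run, 63.0 kb of windows at a run's edge and 55.8 kb of single dense windows. The first window outside a run had 25.2 kb and the fifth 11.6 kb, against 7.35 kb over all windows. Control EZH2 peaks per window were 3.59 inside, 2.92 at the edge and 2.95 in single windows, and 1.31 and 1.05 in the first and the fifth window outside. In shEZH2 the same positions had 1.22, 1.32, 1.53, 0.546 and 0.445 peaks per window. The highest control number was thus inside the runs and the highest shEZH2 number in single windows. Windows outside the runs hold fewer than 20 control regions by the rule, so the step in H3K27me3 at the border is partly set by it, and EZH2 peak numbers went with the number of regions over the window classes.

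H3K27ac had the opposite profile over the same border. Its mean cover was 1.43 kb in shEZH2 and 0.415 kb in control inside the runs, 4.48 kb in shEZH2 and 1.50 kb in control in the first window outside, and 7.27 kb in shEZH2 and 2.46 kb in control in the fifth. Over all windows the mean was 4.72 kb in shEZH2 and 1.47 kb in control. The first window outside was thus below that mean in shEZH2 and close to it in control, and the second, with 6.66 kb in shEZH2 and 2.32 kb in control, above it. A control H3K27ac region lay in 29.8% of windows inside the runs, 53.0% in the first window outside and 63.7% in the fifth, against 48.7% of all windows. From the second to the fifth window outside, mean H3K27ac cover was above that of all windows in both libraries, and in the dense windows it was below.

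**Figure D5:**
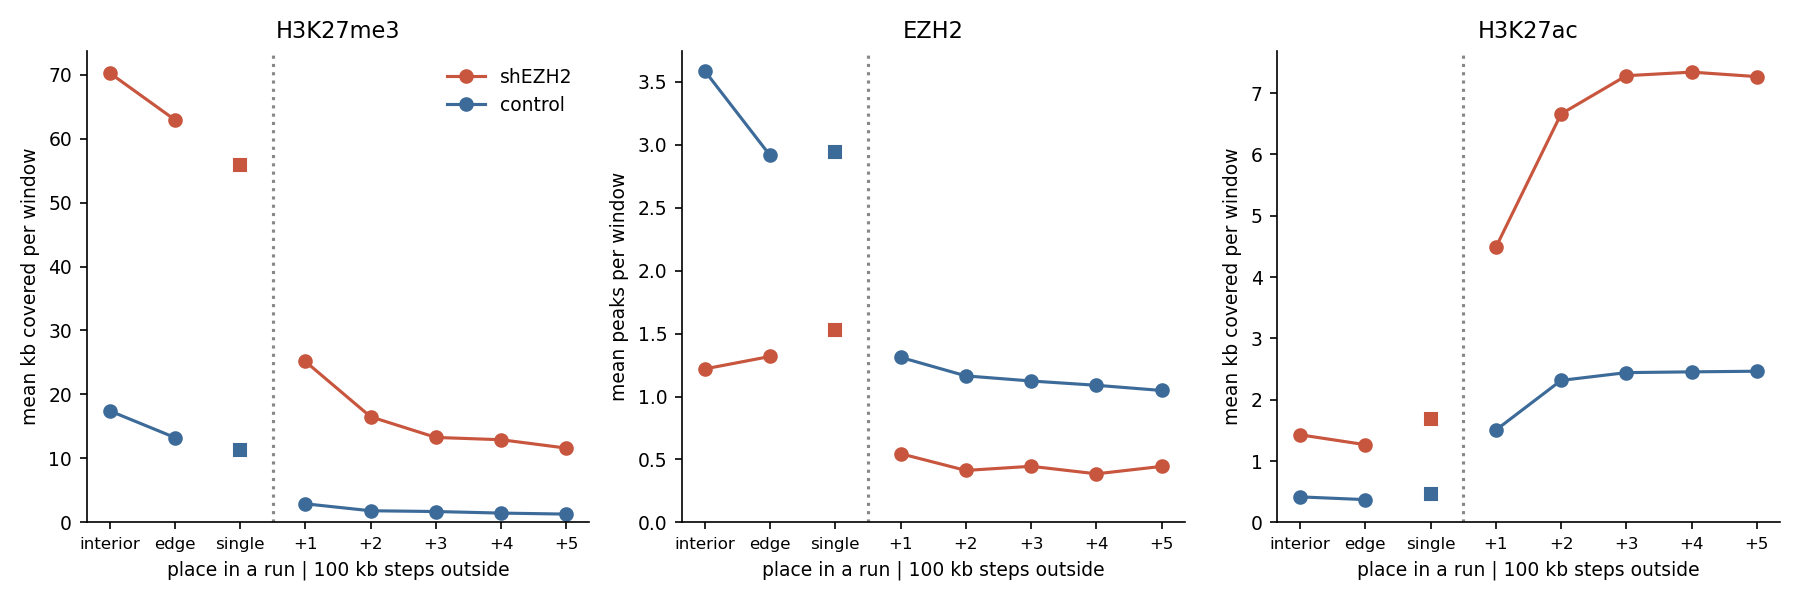
Mean kb covered by H3K27me3 (left), mean EZH2 peaks (middle) and mean kb covered by H3K27ac (right) per 100 kb window away from gaps, in shEZH2 (red) and control (blue), inside a run, at its edge, in single dense windows (squares) and 1 to 5 windows outside (right of the dotted line). Control EZH2 is 3.59 peaks per window inside and 1.05 in the fifth window outside, and control H3K27ac 0.415 kb inside and 2.46 kb in the fifth window outside.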

How the data were processed

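Chromatin immunoprecipitation with sequencing had been done for EZH2, H3K27ac and H3K27me3 in shEZH2 and control LNCaP cells, with 1 library for each of 6 groups taken from the sample titles. The series' other 3 of 9 samples were not analysed here. The submitters' processing notes name BWA 0.6.1, HOMER 4.1 and the build hg19. Per the file headers, each list was called without an input library. EZH2 peaks were fixed windows at a false discovery rate of 0.001. Histone lists of shEZH2 used windows of 1000 bp and a Poisson threshold of 0.001, and those of control windows of 150 bp and a false discovery rate of 0.001. The deposited signal is tags after the authors' scaling to a library size of 10000000. The score, as deposited, is HOMER's and served to rank peaks within a list. The deposited fold is the ratio of a peak to its local 10000 bp.

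Peaks and regions were assigned to 100 kb windows by midpoint, and the end of a chromosome was the largest end in the 6 lists. Cover was the length inside a window. Overlap meant at least 1 bp. Intervals were Clopper-Pearson for shares, Newcombe for their differences, order-statistic for medians, and exact binomial on the split of both numbers for ratios. They cover counting error only. The window and overlap code was tested on simulated lists. The software was matplotlib 3.10.9, numpy 2.4.6, scipy 1.17.1 and pandas 2.3.3 under Python 3.11.15.

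Regions were named by rule: the 5 longest runs, the 10 dense windows with most control EZH2 peaks, and 5 windows each with most control H3K27me3 regions, lowest and highest EZH2 ratio (at least 5 control peaks), no EZH2 peak, and longest control H3K27ac cover, with the 5 strongest EZH2 peaks and H3K27me3 regions. Ties were broken by the number of H3K27me3 regions. The strongest sites away from gaps, the strongest H3K27ac regions and the widest shEZH2 regions were named after their values were seen. The members, lists and classes were chosen with earlier results of these data known. Gene content was planned but not computed, since no hg19 annotation was used here.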

Additional observations from a re-analysis of the deposited data

How the results depend on the processing

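The 11 main values were recomputed under 15 alternative settings, giving 104 values, of which 64 stayed within the interval of the reported value, 38 moved outside it and 2 changed direction. The ratio of EZH2 peak numbers, 0.484, was 1.02 with EZH2 lists of equal length, 0.533 with the upper 50% of the EZH2 lists by score and 0.670 with an equal minimum per kb. The median log2 ratio at EZH2 peaks in both lists, -0.58, was 0.48 with libraries scaled to tags in listed peaks, -0.66 with the upper 50% and -0.86 per peak. The cause was not tested, except that lists of equal length and scaling to listed tags remove, by construction, a difference in list length or in listed tags over the genome. The last alternative of each result (an equal minimum per kb, signal per peak), the strong peaks by run length, peaks of like tags and the profile outside runs were chosen after seeing the data.

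With at least 15 regions per window, a control EZH2 peak lay in 84.2% of windows, 7.20% of control EZH2 peaks were on H3K27ac, 97.6% of control H3K27me3 regions were listed again in shEZH2 and shEZH2 H3K27me3 covered a median of 53.1% of a window. With at least 30 these were 93.4%, 4.69%, 98.9% and 72.3%, and 81.4% of control EZH2 peaks were on H3K27me3 and 22.4% listed again. With 10 Mb left out at each end, 27.04% of control EZH2 peaks were listed again, and without windows near gaps 3.85% were on H3K27ac. With an overlap of at least 50%, 74.7% were on H3K27me3, 17.5% were listed again, and 97.8% of control H3K27me3 regions were listed again.

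With the upper 50% of the EZH2 lists, equal list length and at least 15 tags, in this order, windows with a control EZH2 peak were 66.1%, 60.2% and 45.7%, control EZH2 peaks on H3K27me3 89%, 90.4% and 94.9%, on H3K27ac 8%, 8.88% and 9.62%, and listed again 32.3%, 47.6% and 31.3%. With the upper 50% of the histone lists, 57.6% of control EZH2 peaks were on H3K27me3 and 3.49% on H3K27ac, 69.7% of control H3K27me3 and 66.2% of control H3K27ac regions were listed again, shEZH2 H3K27me3 covered a median of 38.6%, and H3K27ac lay in 31.3% of windows in shEZH2 and 21.7% in control. A grid moved by 50 kb moved no value outside its interval.

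No paired analysis was possible because each group held 1 library, and for the same reason no library was left out in turn. Differences between shEZH2 and control include any difference between the libraries, and no input library was used. Numbers and widths of histone regions are not comparable between groups, since their lists were called with different settings.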
